A study of Mus musculus with 6 samples.

Results

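Expression of 10 genes of bone morphogenetic protein (BMP) signalling was followed in mouse embryonic fibroblasts with and without exon 2 of Cas. They were the ligands Bmp2 and Bmp4, the secreted antagonists Grem1 and Fst, the inhibitory Smads Smad6 and Smad7, and the targets Id1, Id2, Id3 and Id4. Each probe set, the array's unit of measurement for a transcript, whose only annotated symbol was one of these names was taken, which gave 16 of the 45101 probe sets and 10 of the 18193 named genes. Of the 16, 14 probe sets of 9 genes were in the brighter 50% by mean signal over the 6 arrays and were tested, while the single Bmp2 probe set and 1 of 3 Id2 probe sets were dimmer.

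The cultures were Cas exon 2∆/∆ (homozygotes), Cas exon 2+/∆ (heterozygotes) and Cas exon 2+/+ (wild type), with 2 embryos and 2 Affymetrix arrays for each genotype. Cas (p130Cas, gene Bcar1) is a docking protein of integrin adhesions. All embryos came from intercrosses of heterozygotes and were taken at 12.5 days post coitum, and the fibroblasts were grown from what was left after head and inner organs had been removed, in medium with fetal calf serum. The background strain is given as B6 for every culture except wild type 1, whose labels name none. The main comparison sets homozygotes against the mean of heterozygotes and wild type, and the others set each pair of genotypes against each other. Differences are on the log2 scale from 1 limma fit over all 6 arrays, with p-values adjusted over every probe set tested and a threshold of 0.05. No result rests on more than 2 arrays per genotype, and a smaller share of a cell type and less RNA per cell cannot be told apart in such bulk RNA.

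BMPs are secreted dimers that bring type I and type II serine/threonine kinase receptors together, and the type I receptor then phosphorylates Smad1, Smad5 and Smad9, which enter the nucleus with Smad4. Id genes are among the most direct targets. Their proteins have a helix-loop-helix domain without a DNA-binding region, so they pair with E proteins and keep them from DNA. Smad6 and Smad7 are induced by the pathway and inhibit it, gremlin (Grem1) binds BMP2 and BMP4 outside the cell, and follistatin (Fst) binds mainly activins and also some BMPs.

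The 250 bases before the start sites of Id2, Id3 and Id4 are shown, the Id genes for which a promoter sequence was available. For Id1 there was none. They are RefSeq sequences of GRCm38.p6, written 5′ to 3′ on the gene's strand. Capitals mark GGCGCC, a GC-rich motif known from Smad1 and Smad5 binding, and CAGAC or its reverse complement GTCTG, a Smad4 box. Both strands were searched, and no matches overlapped.
Id2, chr12:25096093-25096342, minus strand: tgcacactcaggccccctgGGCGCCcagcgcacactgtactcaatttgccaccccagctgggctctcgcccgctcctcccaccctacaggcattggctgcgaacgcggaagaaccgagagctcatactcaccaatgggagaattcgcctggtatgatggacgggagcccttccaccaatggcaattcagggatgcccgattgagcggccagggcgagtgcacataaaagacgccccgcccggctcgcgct
Id3, chr4:136143572-136143821, plus strand: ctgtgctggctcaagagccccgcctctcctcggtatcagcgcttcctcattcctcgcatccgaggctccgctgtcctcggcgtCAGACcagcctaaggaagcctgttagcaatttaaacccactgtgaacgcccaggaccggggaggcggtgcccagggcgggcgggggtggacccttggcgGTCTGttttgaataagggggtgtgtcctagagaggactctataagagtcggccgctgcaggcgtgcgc
Id4, chr13:48260866-48261115, plus strand: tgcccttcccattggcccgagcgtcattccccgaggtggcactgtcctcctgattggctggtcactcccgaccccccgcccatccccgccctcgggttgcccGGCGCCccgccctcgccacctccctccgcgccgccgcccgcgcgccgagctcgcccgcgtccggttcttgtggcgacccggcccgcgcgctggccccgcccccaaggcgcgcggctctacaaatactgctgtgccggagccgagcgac
GGCGCC occurred once in the Id2 window, beginning 231 bases before the start, and once in the Id4 window, beginning 148 bases before it. The Id3 window held no GGCGCC but had a Smad4 box beginning 167 and another beginning 68 bases before the start. Of 32851 RefSeq promoter windows of this length, 9.59% held GGCGCC and 42.2% held the Smad4 box, so the second motif is common. The promoter table held 6 of the 10 genes. Of the others in it, Grem1 had both motifs and Bmp4 and Smad6 had neither. These matches describe letters in a window and not sites of binding.

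No 2 arrays shared the value of more than 1 probe set, and their median deposited intensities lay between 21.9 and 27.3. The Bcar1 probe set with the highest signal had log2 intensities of 8.08 and 8.43 in homozygotes, 8.19 and 8.32 in heterozygotes, and 9.37 and 8.42 in wild-type cultures. The position of its probes on the gene is unknown here, so it does not check the deletion. By Xist and the Y-linked genes Eif2s3y, Kdm5d and Uty, both homozygote arrays had male expression and both heterozygote arrays female expression, while wild type 1 was female and wild type 2 male. Genotype and sex therefore cannot be told apart between homozygotes and heterozygotes. All 12 fibroblast markers (among them Col1a1, Pdgfra and Thy1) lay above the intensity filter, with a summed deposited intensity of 64543 to 69587 in homozygotes, 69292 to 76402 in heterozygotes and 50901 to 63253 in wild type, lowest in wild type 1.

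Id4 stood highest in homozygotes. Id4 encodes the Id protein best known from neural precursors and from the switch between bone and fat formation. Its brightest probe set had deposited intensities of 414.5 and 261 in homozygotes, 287.5 and 225.2 in heterozygotes, and 195.9 and 144.8 in wild type. Both homozygote and both heterozygote arrays lay above both wild-type arrays, and homozygote 2 lay below heterozygote 1. On the normalized log2 scale the means were 8.42 ± 0.44 for homozygotes, 7.92 ± 0.42 for heterozygotes and 7.47 ± 0.18 for wild type (SD, n = 2 each). Homozygotes differed from the mean of the other genotypes by 0.73 (SE 0.28), which is 1.65-fold, with a 95% interval of 0.05 to 1.41. This did not pass the threshold (limma unadjusted p = 0.0400, adjusted p = 1).

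The other Id4 probe sets, designed from the same accession, gave differences of a like size. The second had intensities of 248.5 and 137.9 in homozygotes, 171.7 and 142.7 in heterozygotes, and 104.3 and 85 in wild type, in the same order as the first except that homozygote 2 lay below both heterozygotes, which after normalization held for heterozygote 1 alone. Its log2 difference in the main comparison was 0.66 (SE 0.28, limma unadjusted p = 0.0585, adjusted p = 1). The third had 113.2 and 105.8 in homozygotes, against 70 and 71.4 in heterozygotes and 69.8 and 64.3 in wild type. It was the member probe set with the smallest unadjusted p, and both homozygote arrays lay above all 4 others, with a log2 difference of 0.69 (SE 0.18, limma unadjusted p = 0.00849, adjusted p = 1). By unadjusted p it ranked 67th of the 22519 probe sets tested. After normalization the 3 probe sets disagreed on heterozygotes against wild type, where the differences were 0.45 (SE 0.32), 0.55 (SE 0.33) and -0.11 (SE 0.21). On the deposited values both heterozygote arrays lay above both wild-type arrays at the third probe set too, and normalization put them below.

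Against wild type alone, homozygotes differed in Id4 by 0.95 (SE 0.32), 0.93 (SE 0.33) and 0.63 (SE 0.21) at the 3 probe sets, with both homozygote arrays above both wild-type arrays at each (limma adjusted p = 0.973 for each). For the brightest probe set the difference was 0.65 without homozygote 1, and 1.02 (SE 0.42) with a covariate for embryo sex. In the main comparison it was 0.42 (SE 0.33) without homozygote 1 and 0.84 (SE 0.53) with the covariate. Markers of other cells also differed in homozygotes. The 6 neural and glial markers above the filter, of 9 on the array, were all lower in the main comparison (median -0.62), with a summed intensity over the 9 of 509 to 621 in homozygotes, 1388 to 2315 in heterozygotes and 1820 to 2521 in wild type. Most of that sum was Stmn2, a neuronal microtubule regulator, with 346.5 and 254.4 in homozygotes, 1116 and 1899 in heterozygotes, and 2050 and 1503 in wild type. The other 8 summed to 274.2 and 254.8 in homozygotes, 272.1 and 415.3 in heterozygotes, and 471.2 and 316.3 in wild type, so that homozygotes and heterozygotes overlapped without it. Stmn2 was singled out after its values were seen. Macrophage markers had higher means in homozygotes and were highest in homozygote 1, with values given beside Id2. Their part in the Id4 values was not tested.

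**Figure D1:**
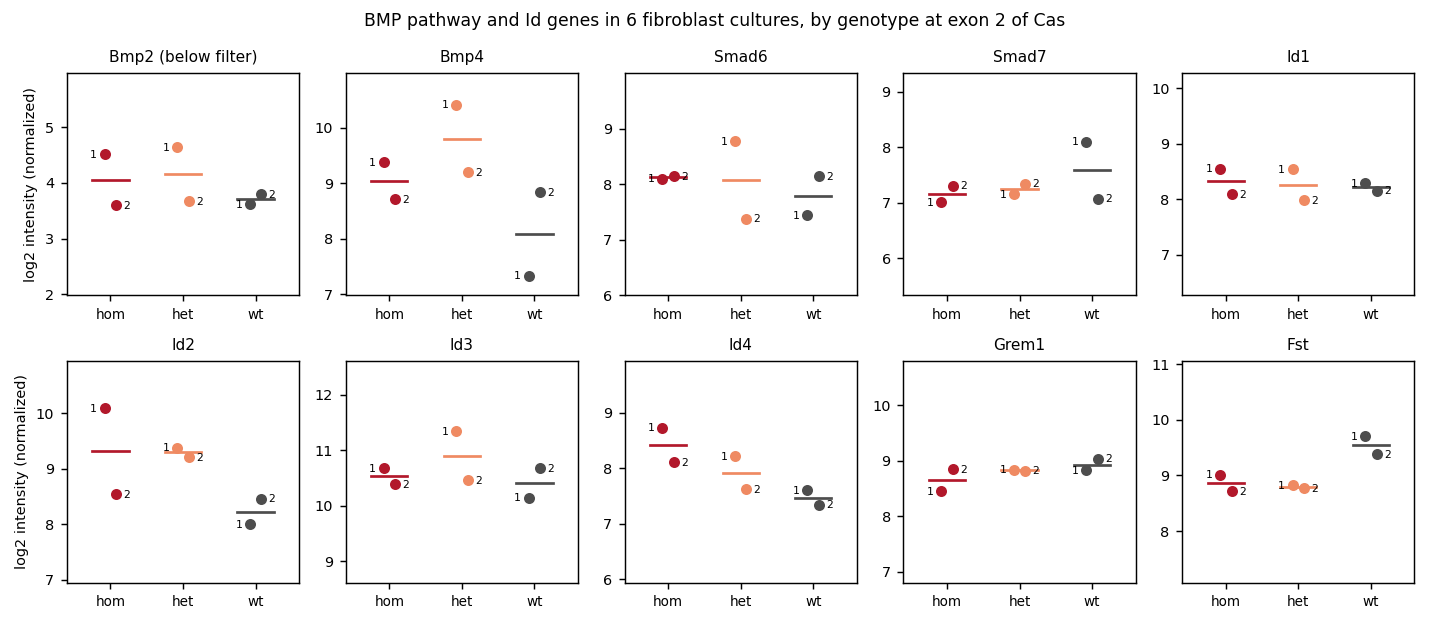
Normalized log2 intensity of the brightest probe set of each of the 10 genes, 1 panel per gene with 4 log2 units on each y axis. Points are arrays (hom, homozygous; het, heterozygous; wt, wild type; digits give the replicate) and bars are the mean of 2 arrays. Id4 has its highest mean in homozygotes and Fst is highest in wild type. Bmp4 spreads widely within genotypes, Id2 does so in homozygotes and Smad6 in heterozygotes.

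At its brightest probe set Id2 was lowest in wild type and uneven among homozygotes. Id2 encodes an Id protein with broad roles in proliferation and in the development of lymphoid cells and fat. Its brightest probe set had intensities of 1014.6 and 354.4 in homozygotes, 640.8 and 672.1 in heterozygotes, and 260.6 and 318 in wild type. Homozygote 1 was the highest array, homozygote 2 lay just above wild type, and both arrays of either deletion genotype lay above both wild-type arrays. The log2 difference from wild type was 1.09 (SE 0.50, limma unadjusted p = 0.0711, adjusted p = 0.973) in homozygotes and 1.07 (SE 0.50, limma unadjusted p = 0.0754, adjusted p = 0.838) in heterozygotes. These comparisons share the wild-type arrays. In the main comparison the difference was 0.55 (SE 0.43, limma adjusted p = 1), and it was -0.22 without homozygote 1 but 1.32 without homozygote 2.

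At the other Id2 probe sets, wild type did not lie below both deletion genotypes after normalization. The second had 332.8 and 91.7 in homozygotes, 203.4 and 120.6 in heterozygotes, and 87.6 and 115.2 in wild type, so that homozygote 2 overlapped wild type. After normalization heterozygote 2 also lay below wild type 2, and heterozygotes differed from wild type by 0.46 (SE 0.62) on it, against 1.07 at the first. The third, below the filter, had 35.9 and 23 in homozygotes, 34.9 and 22.1 in heterozygotes, and 6.7 and 19.3 in wild type, and after normalization heterozygote 2 lay just below wild type 2 and heterozygote 1 was the highest array. Homozygote 1 was also the array with the most macrophage signal. Of 20 macrophage markers, all 18 above the filter were higher in homozygotes in the main comparison (median log2 difference 1.27). The summed intensity of all 20 was 8502 to 17962 in homozygotes, 6211 to 6417 in heterozygotes and 3730 to 7935 in wild type, and no marker was listed at 0. Their part in the Id2 values was not tested.

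Id1 and Id3 showed little separation of the genotypes. Id1, the classical BMP-induced Id gene, had intensities of 366.7 and 257.8 in homozygotes, 358 and 288.5 in heterozygotes, and 324.2 and 258.7 in wild type, and the 3 genotypes overlapped. Its log2 difference in the main comparison was 0.08 (SE 0.25), with a 95% interval of -0.53 to 0.69, so a change of up to 0.53 downward or 0.69 upward lies within the error. Id3, an Id gene often induced together with Id1, had 1492.8 and 1324.5 in homozygotes, 2401.9 and 1573 in heterozygotes, and 1249 and 1538.3 in wild type. Heterozygote 1 was the highest array and the other 5 lay close together. The Id3 difference was -0.13 (SE 0.31, 95% interval -0.89 to 0.63) in the main comparison and 0.49 (SE 0.36) between heterozygotes and wild type (limma adjusted p = 1 and 0.849).

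**Figure D2:**
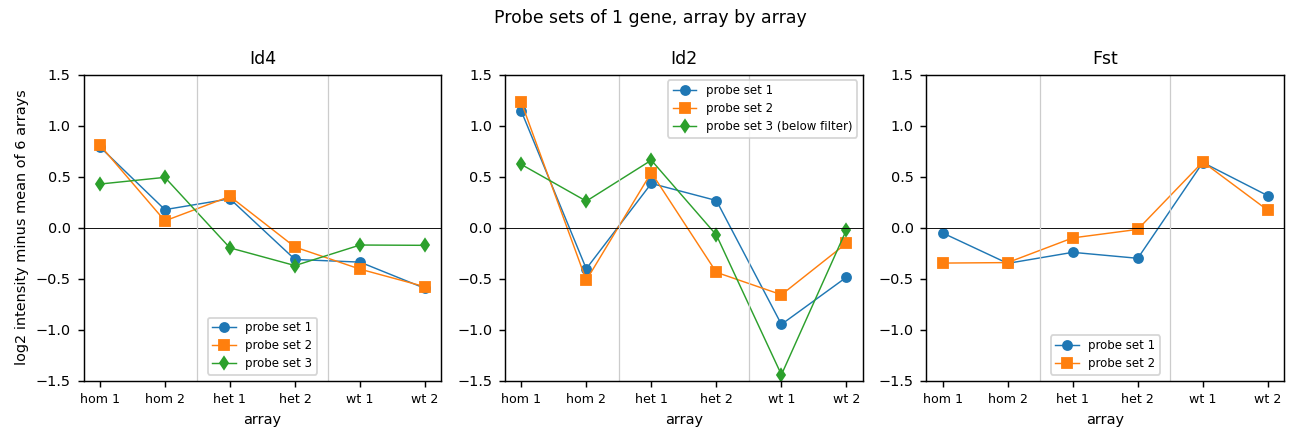
Log2 intensity of each probe set of Id4, Id2 and Fst minus its own mean over the 6 arrays (y axis), array by array (x axis; hom, homozygous; het, heterozygous; wt, wild type), with probe sets numbered by falling mean signal. The first 2 Id4 probe sets run together and the third separates homozygotes from the rest, the Id2 probe sets share the peak in homozygote 1 except for the dimmest, which is highest in heterozygote 1, and both Fst probe sets are highest in wild type 1.

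Bmp4 had its lowest value in the first wild-type culture and its highest in heterozygote 1. BMP4 is a mesenchymal ligand that patterns limb, tooth and mesoderm. Its probe set had intensities of 637 and 401.7 in homozygotes, 1290 and 667.3 in heterozygotes, and 161.8 and 417.4 in wild type. Homozygotes overlapped wild type, since homozygote 2 lay below wild type 2, and both heterozygote arrays lay above both wild-type arrays. The log2 difference was 0.10 (SE 0.53) in the main comparison and 0.96 (SE 0.61, limma adjusted p = 0.973) between homozygotes and wild type. Homozygotes lay below heterozygotes by -0.76 (SE 0.61, limma adjusted p = 1).

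Between heterozygotes and wild type, Bmp4 differed by 1.72 (SE 0.61), which is 3.29-fold and was the largest difference of any tested member probe set in any comparison (limma unadjusted p = 0.0295, adjusted p = 0.838). It rested in part on wild type 1, since it was 0.96 without that array and 1.11 without heterozygote 1. With the covariate for embryo sex the difference was 3.0 (SE 0.64, limma adjusted p = 0.173). The slope of that covariate came mostly from the gap between wild type 1 and wild type 2, so this value leans on wild type 1 too. Among the brightest probe sets of the 9 tested genes, Bmp4 also had the widest spread within genotypes, with a pooled SD of 0.84 log2 units, above that of 96.3% of the probe sets tested. Of 12 fibroblast markers, 11 were also higher in heterozygotes than in wild type (median 0.75). Comp, a cartilage and tendon matrix gene, differed by 1.95 (SE 0.74) in that comparison. The 3 osteoblast and cartilage markers above the filter (Sox9, Col2a1 and Comp), of 9 on the array, were all higher there. The others, all below the filter, were each lower (Sp7 -0.66, Ibsp -0.28, Alpl -0.34, Acan -0.37, Matn1 -0.82 and Ihh -0.47). The intensity summed over the 9 was 473 to 647 in heterozygotes, against 256 to 276 in wild type. The part of these cell types in the Bmp4 values was not tested.

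Bmp2, a close relative of Bmp4 and an inducer of bone, lay below the intensity filter, and on each array below that array's median intensity. Its intensities were 22.5 and 9.08 in homozygotes, 23.8 and 11.9 in heterozygotes, and 10.5 and 11.5 in wild type, which overlap. In a fit without the intensity filter the main difference was 0.13 (SE 0.42, limma adjusted p = 1).

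The brightest probe sets of both inhibitory Smads overlapped between the genotypes. Smad6, which acts mainly against the BMP branch, had intensities of 273.4 and 268.1 in homozygotes, 419.8 and 191.5 in heterozygotes, and 174.8 and 256.3 in wild type. The homozygote arrays were close together and lay inside the heterozygote range, and the main difference was 0.19 (SE 0.42, 95% interval -0.83 to 1.21). Smad7, which acts against both BMP and TGF-beta receptors, had 131.4 and 147.6 in homozygotes, 139.4 and 187.2 in heterozygotes, and 279.9 and 120.5 in wild type at its brighter probe set. On the deposited values the wild-type arrays were the highest and the lowest of the 6, and the main difference was -0.26 (SE 0.32, 95% interval -1.03 to 0.51). The second Smad7 probe set had 46.0 and 60.2 in homozygotes, 67.6 and 130.9 in heterozygotes, and 103.2 and 39.3 in wild type. Both homozygote arrays lay below both heterozygote arrays on it (difference -0.71, SE 0.49, limma adjusted p = 1), while wild type overlapped both. It gave -0.52 (SE 0.42) in the main comparison, and 0.37 (SE 0.49) between heterozygotes and wild type, where the first gave -0.34 (SE 0.37).

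Of the antagonists, Fst had its highest values in wild type. Its brighter probe set had intensities of 497.2 and 403.3 in homozygotes, 435.5 and 492.4 in heterozygotes, and 913.6 and 609.8 in wild type. Both deletion genotypes lay below both wild-type arrays and overlapped each other. The log2 difference from wild type was -0.68 (SE 0.24, limma unadjusted p = 0.0288, adjusted p = 0.973) in homozygotes and -0.75 (SE 0.24, limma unadjusted p = 0.0195, adjusted p = 0.838) in heterozygotes, against the same wild-type arrays. Homozygotes and heterozygotes differed by 0.07 (SE 0.24), with a 95% interval of -0.51 to 0.65.

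The second Fst probe set had 178.3 and 165.7 in homozygotes, 205.3 and 255.2 in heterozygotes, and 367.7 and 229.4 in wild type. Both homozygote arrays lay below all 4 others on it, also after normalization, with a log2 difference of -0.52 (SE 0.21, limma unadjusted p = 0.0484, adjusted p = 1) in the main comparison. On the deposited values heterozygote 2 lay above wild type 2, which was no longer so after normalization. The first Fst probe set gave -0.30 (SE 0.21) in the main comparison. Without wild type 1, its difference of homozygotes from wild type was -0.51, and with the covariate for embryo sex it was -0.54 (SE 0.30), while the main difference was then -0.06 (SE 0.38).

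Grem1 varied little. It had intensities of 345.2 and 443.3 in homozygotes, 441 and 507.6 in heterozygotes, and 477.7 and 476.2 in wild type. Homozygote 1 was the lowest array and the other 5 were close together. The main difference was -0.23 (SE 0.21, 95% interval -0.73 to 0.27), and without homozygote 1 it was -0.04. The pooled SD within genotypes was 0.18 for both Grem1 and the brighter Fst probe set, below the median of 0.29 over all tested probe sets, while Bmp4, Id2 (0.66) and Smad6 (0.64) spread more.

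**Figure D3:**
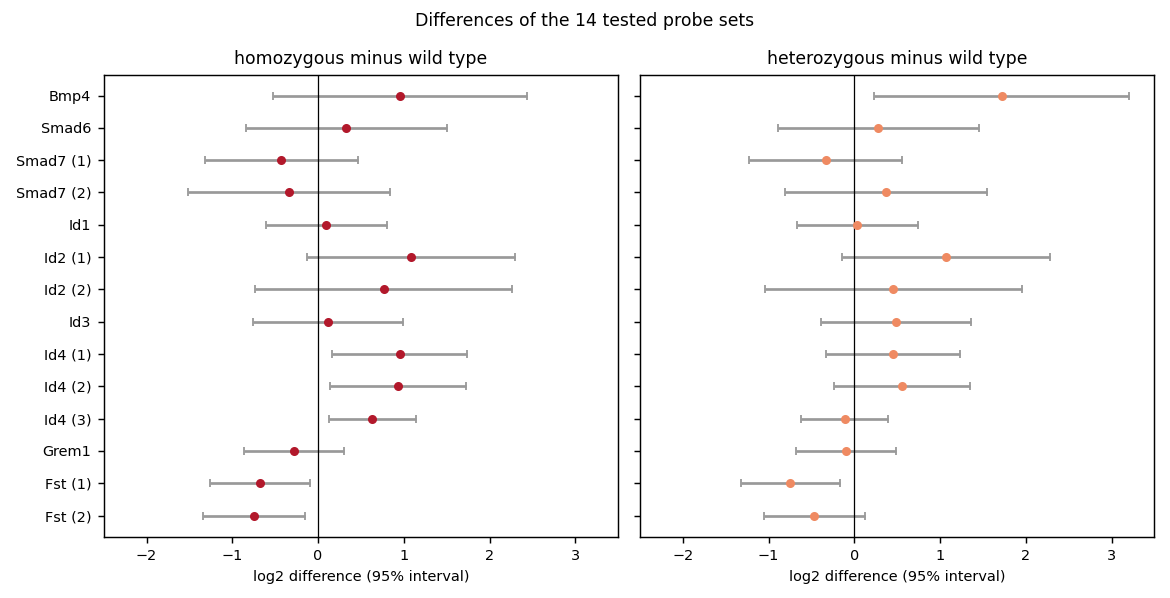
Log2 differences (x axes) of the 14 tested probe sets from wild type, in homozygotes on the left and in heterozygotes on the right. Points are limma estimates, bars their 95% intervals, and numbers in brackets order the probe sets of a gene by falling mean signal. The intervals of all 3 Id4 and both Fst probe sets lie off 0 in homozygotes, and those of Bmp4 and the first Fst probe set in heterozygotes.

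In total, no member probe set was called at an adjusted p under 0.05 in any of the 4 comparisons, and neither was any other probe set (limma, 0% of 22519 in each). That includes the Y-linked Eif2s3y, which differed by 7.21 between homozygotes and heterozygotes. A lack of calls therefore does not show that a gene was unchanged. In the main comparison 3 of the 14 probe sets had an unadjusted p under 0.05, where the share over all tested probe sets was 2.49%. They were 2 higher ones of Id4 (1.22% of all were higher) and 1 lower one of Fst (1.27% were lower). For homozygotes against wild type the count was 5 of 14 (3.8% of all), with 3 higher of Id4 (1.96%) and 2 lower of Fst (1.84%). For homozygotes against heterozygotes it was 1 of 14 (2.17%), a higher one of Id4 (1.12%), and none was lower (1.05%). For heterozygotes against wild type it was 2 of 14 (5.26%), with Bmp4 higher (2.85%) and Fst lower (2.42%). Probe sets of 1 gene measure the same RNA, so by brightest probe set the counts were 1, 2, 0 and 2 of 9 genes. The share over all genes was not computed for these counts. In the main comparison 1 member probe set had both homozygote arrays above the other 4 (3.27% of all tested) and 1 had both below (4.02%). In homozygotes against wild type, 4 member probe sets, of Id4 and Id2, had both arrays above (13.3% of all tested). Both arrays were below at 2, of Fst (14.9%). In homozygotes against heterozygotes there were 1 above (12%) and 2 below (12.8%). In heterozygotes against wild type there were 4 above (17.9%) and 3 below (19.3%). By brightest probe set, 2 genes were above and 1 below in homozygotes against wild type. In heterozygotes against wild type 3 were above and 1 below, and there were none in the other comparisons. The median difference of the 9 genes was 0.08 in the main comparison, against -0.01 over 11373 genes. Against wild type it was 0.12 in homozygotes, against -0.02 over all genes, and 0.28 in heterozygotes, against 0.0011.

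The wider pathway was read from lists of ligands, receptors, Smads and cofactors, antagonists, targets and partners of Id proteins, and no gene of these lists passed the threshold in any comparison (limma). Members are counted in the lists they belong to. Among ligands, 3 of the 5 above the filter were higher in homozygotes in the main comparison. Bmp5 differed by 0.32 (SE 0.31), Bmp6 by 0.20 (SE 0.26), Gdf2 by -0.25 (SE 0.41) and Gdf10 by -0.14 (SE 0.91). Gdf10, a relative of BMP3, varied like Bmp4, with log2 intensities of 7.77 and 5.95 in homozygotes, 9.41 and 7.67 in heterozygotes, and 4.12 and 6.80 in wild type. Its lowest and highest arrays were those of Bmp4, and heterozygotes differed from wild type by 3.08 (SE 1.06, limma adjusted p = 0.838).

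Receptors and co-receptors were split, with 6 of 10 higher in homozygotes and a median of 0.04. The BMP co-receptor Rgmb differed by -0.33 (SE 0.19), with both homozygote arrays below the other 4, and the endothelial type I receptor Acvrl1 by -0.37 (SE 0.35). The activin type II receptor Acvr2a differed by 0.22 (SE 0.30) and the type I receptor Acvr1 by -0.14 (SE 0.28). Of the Smads and cofactors, 8 of 13 were lower, with a median of -0.04. The ubiquitin ligases Smurf2 and Smurf1, which mark Smads and receptors for degradation, differed by -0.38 (SE 0.23) and -0.22 (SE 0.29). The antiproliferative Tob2 differed by -0.33 (SE 0.18) and the common partner Smad4 by 0.19 (SE 0.24).

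Of the secreted antagonists above the filter, 8 of 11 were lower in homozygotes in the main comparison, the members Grem1 and Fst among them. The median was -0.28, against -0.01 over all genes, of which 47.4% were higher. Those below the filter went both ways in a fit without it. Chrdl1 (0.47), Cer1 (0.37), Dand5 (0.17) and Vwc2 (0.09) were higher, and Nog (-0.0099), Chrdl2 (-0.20), Sost (-0.62) and Sostdc1 (-0.26) lower. The secreted protease Htra1 had log2 intensities of 9.76 and 10.22 in homozygotes, 10.56 and 11.03 in heterozygotes, and 10.27 and 10.81 in wild type. Both homozygote arrays lay below the other 4 (difference -0.67, SE 0.27, limma unadjusted p = 0.0467, adjusted p = 1). Fstl3, a relative of follistatin, differed by -0.68 (SE 0.44), with 6.22 and 7.85 in homozygotes, 7.43 and 7.26 in heterozygotes, and 8.22 and 7.98 in wild type. Chordin (Chrd), which traps BMPs, differed by -0.53 (SE 0.37) and the BMP-binding membrane protein Crim1 by -0.42 (SE 0.40).

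Among BMP target genes other than the members, Msx2 had the smallest unadjusted p. Msx2 is a homeobox gene of limb and skull mesenchyme. Its log2 intensities were 5.24 and 5.75 in homozygotes, 6.01 and 5.42 in heterozygotes, and 7.38 and 6.69 in wild type, so that both deletion genotypes lay below both wild-type arrays. The difference from wild type was -1.54 (SE 0.36, limma unadjusted p = 0.00456, adjusted p = 0.973) in homozygotes and -1.32 (SE 0.36, limma unadjusted p = 0.00943, adjusted p = 0.838) in heterozygotes. This is the direction of Fst and opposite to that of Id2 and Id4. The Notch and BMP target Heyl differed by -0.50 (SE 0.21) in the main comparison, with both homozygote arrays below the other 4. Its homozygote mean of 4.56 lay just under 4.57, the lowest mean over the 6 arrays that the filter kept, so its signal was dim. Dlx2 differed by -0.64 (SE 0.41) and Hey1 by -0.40 (SE 0.34). Over the target list, with the members in it, 10 of 16 genes were lower and the median was -0.11.

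Factors with a helix-loop-helix domain, the class that Id proteins act on, were split 5 to 5 with a median of 0.0054. The mesenchymal factor Tcf21 had log2 intensities of 5.67 and 6.0 in homozygotes, 4.64 and 4.93 in heterozygotes, and 4.02 and 4.90 in wild type, with both homozygote arrays above the other 4 (difference 1.21, SE 0.30, limma unadjusted p = 0.00597, adjusted p = 1). The Tcf21 mean in wild type, 4.46, lay below the lowest mean that the filter kept, 4.57. Twist2 differed by 0.34 (SE 0.25) and the tendon factor Scx by 0.33 (SE 0.33). Activin and TGF-beta genes had 10 of 17 lower and a median of -0.01. The type I receptor Tgfbr1 differed by 0.46 (SE 0.24), the TGF-beta target Pmepa1 by -0.42 (SE 0.23), Tgfb3 by -0.24 (SE 0.18) and the co-receptor Tgfbr3 by 0.60 (SE 0.52).

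Over the 6 arrays, the genes whose pattern was most like Id1 were Rpa2 (Pearson r = 0.975), Rab7 (r = 0.975) and Ube2t (r = 0.957), out of 11371 genes. Among the members, Id4 came nearest to Id1 (r = 0.69), followed by Smad6 (0.59), Id3 (0.58) and Id2 (0.52), and Grem1 was the most opposed (r = -0.56). With 6 arrays of 3 genotypes and both sexes, these values only describe the arrays.

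**Figure D4:**
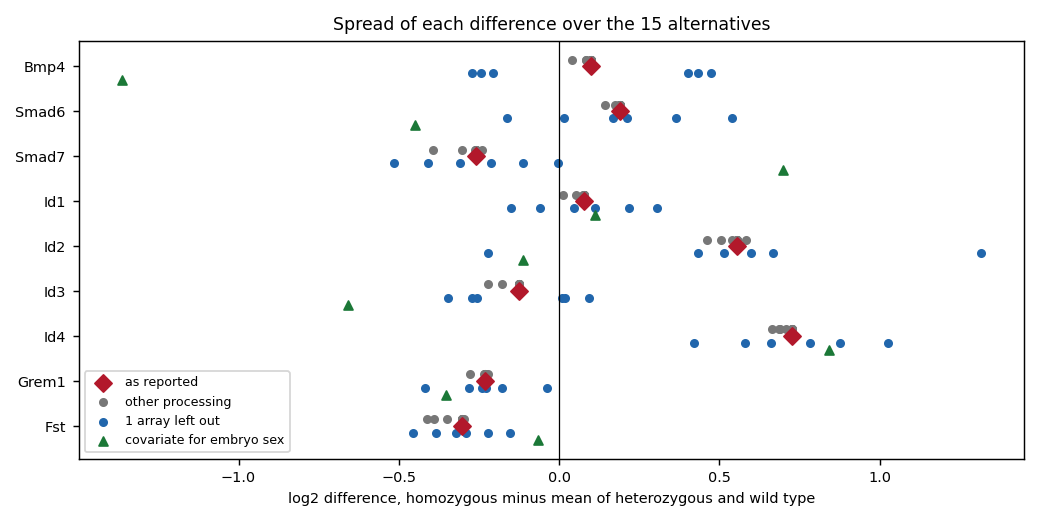
Log2 difference of the brightest probe set of the 9 tested genes, homozygotes minus the mean of heterozygotes and wild type (x axis), as reported (diamonds) and under the 15 alternatives (dots for other processing and for leaving out 1 array, triangles for a covariate for embryo sex). Id4 stays between 0.42 and 1.03, Fst and Grem1 stay below 0, and Bmp4, Smad6, Smad7, Id1, Id2 and Id3 lie on both sides of 0.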

How the data were processed

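Biotinylated cRNA from 2 µg of total RNA was hybridized to Affymetrix mouse arrays, per the labels' protocols. The authors deposited linear intensity values, 1 per probe set. The sources used here do not give the scanner software, probe summary, scaling, detection calls or scan dates. Probe sets were named from GEO's platform annotation, with symbols updated through Entrez identifiers (GRCm38.p6): 34945 had 1 symbol, 932 several, 9160 none, and 64 were controls.

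Values were taken as log2(intensity + 1.78), the pseudocount being the 10th percentile, and quantile normalized, since log2 medians spanned 0.29. The pseudocount makes differences of dim probe sets smaller than the true change. The upper 50% of the 45037 probe sets that were not controls were fitted with limma 3.58.1 (R 4.3.3), 1 mean per genotype, 6 arrays, 3 residual and 3.28 prior degrees of freedom, Benjamini-Hochberg adjustment over all 22519, threshold 0.05, after a test on simulated data. SE is the fit's standard error. In lists, a gene's brightest probe set stands for it. P-values rest on the spread between the embryos of a genotype.

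The genes, lists and alternatives were chosen with earlier results of these data known. All members were named, with up to 4 genes of each other list by smallest unadjusted p in the main comparison, and the 3 genes most like Id1. Further genes or values named beside a result (Comp, Gdf10 between heterozygotes and wild type) were chosen after their values were seen. The embryo sex covariate was the mean of centred Eif2s3y, Kdm5d and Uty minus centred Xist. It was 6.19 and 4.56 in homozygotes, -6.12 and -6.31 in heterozygotes, and -3.56 and 5.24 in wild type. Only wild type held both sexes, so its slope came mostly from wild type 1 against wild type 2. Values with this covariate carry that gap over to the other genotypes and do not separate sex from genotype. Alternatives changed normalization, pseudocount, filter, probe sets, variance trend, replicate block, sex covariate and the arrays included.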

Additional observations from a re-analysis of the deposited data

How the results depend on the processing

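None of the 15 alternatives gave a call to any of the 9 genes above the filter in any of the 4 comparisons, and the smallest limma adjusted p was 0.173. Of 540 differences recomputed, 490 kept their sign and 50 turned, none of the latter being called. The replicate block, the variance trend and both changes of filter leave every difference as it was. The 36 differences under each of these could not turn, and all are among the 490. Bmp2 was fitted only without the filter and was not called. Id4, followed by its brightest probe set or the average of its probe sets, kept its sign throughout. Its other probe sets were not followed on their own. Differences that turned were mostly small. With the covariate for embryo sex, the main difference was -1.36 for Bmp4, -0.45 for Smad6, 0.70 for Smad7 and -0.11 for Id2. There, homozygotes against wild type gave -0.031 for Smad6, 0.11 for Smad7 and -0.18 for Id3, homozygotes against heterozygotes -0.87 for Smad6, 1.29 for Smad7 and -0.94 for Id2, and heterozygotes against wild type 0.0089 for Grem1. The slope of this covariate came mostly from wild type 1 against wild type 2, so these values do not separate sex from genotype.

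Leaving out 1 array at a time moved the main difference between -0.27 (without wild type 1) and 0.47 for Bmp4, -0.16 (without heterozygote 2) and 0.54 for Smad6, -0.15 (without homozygote 1) and 0.30 for Id1, -0.22 (without homozygote 1) and 1.32 for Id2, and -0.35 and 0.093 (without heterozygote 1) for Id3. For homozygotes against wild type the range was -0.022 (without wild type 1) to 0.68 for Smad6, -0.94 to 0.082 (without wild type 1) for Smad7, -0.13 (without homozygote 1) to 0.32 for Id1, and -0.15 (without wild type 1) to 0.38 for Id3. For homozygotes against heterozygotes it was -0.65 (without heterozygote 2) to 0.75 for Smad6, -0.24 to 0.057 (without homozygote 1) for Smad7, -0.22 (without heterozygote 2) to 0.34 for Id1, -0.76 (without homozygote 1) to 0.79 for Id2, -0.81 to 0.067 (without heterozygote 1) for Id3, -0.37 to 0.013 (without homozygote 1) for Grem1, and -0.080 (without homozygote 1) to 0.22 for Fst. For heterozygotes against wild type it was -0.42 (without heterozygote 1) to 0.98 for Smad6, -0.85 to 0.17 (without wild type 1) for Smad7, -0.24 (without heterozygote 1) to 0.31 for Id1, and -0.20 to 0.0072 (without wild type 2) for Grem1.

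Without quantile normalization, homozygotes against heterozygotes gave -0.067 for Smad6, -0.063 for Id1, -0.13 for Id2 and -0.048 for Fst; that scaling moved the median of all probe sets to -0.11 there and to 0.11 in heterozygotes against wild type. Median scaling gave -0.023 for Id3 (homozygotes) and -0.024 for Id1 (heterozygotes) against wild type. With averaged probe sets, Fst was at -0.11 against heterozygotes and Smad7 at 0.016 in heterozygotes against wild type. The cause of these turns was not tested.

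Every genotype has both replicate numbers, so the replicate block (the labels' replicate numbers) could change no difference or sign, only the error. It called 0 member probe sets and left 3, 4, 1 and 2 with an unadjusted p under 0.05, against 3, 5, 1 and 2 without it, in the main comparison, homozygotes against wild type, homozygotes against heterozygotes and heterozygotes against wild type, in this order. Same-numbered arrays deviated oppositely (r = -0.14, -0.14 and -0.36 between genotypes), and the labels tie no number to a litter or day. In all, 2 arrays per genotype and the lack of detection calls limit dim genes such as Bmp2.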
